A study of Mus musculus with 8 samples.

Results

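The chemokine receptor genes Cxcr5, Cxcr4, Ccr1, Ccr2, Ccr9, Ccrl2 and Cx3cr1 were followed in the open chromatin of type 1 conventional dendritic cells (cDC1s) taken from mouse tumours. These 7 genes were given by name, without Ccr7, whose product takes mature dendritic cells along CCL19 and CCL21 into lymph nodes. A region of the count table was assigned to one of them if its centre lay in the gene body, or within 50 kb of the gene body with that gene's end as the nearest end of any protein-coding gene. By this rule the 7 genes, of 21887 protein-coding genes, held 99 of 128057 regions. Nearness to a gene does not show that a region acts on it. Both groups were wild-type mice carrying tumours of B16-OVA, a melanoma line engineered to make the model antigen ovalbumin, and the tumour cDC1s were sorted either 7 days (4 libraries) or 21 days (4 libraries) after the tumour cells were given. There was no group without a tumour. The mouse strain and age, the markers used for the sort, and whether each library came from its own animal or from pooled animals are not given in the sources used here, so a p-value here reflects only how far these libraries scatter, which may be technical.

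Chemokine receptors are G protein-coupled receptors of the cell surface that read gradients of small secreted proteins, the chemokines, and turn them into directed movement through Gi proteins. CXCR5 leads cells towards CXCL13 in lymphoid follicles, CXCR4 responds to CXCL12, and CCR1 and CCR2 bring leukocytes to inflamed tissue. CCR9 answers to CCL25 of gut and thymus, and CX3CR1 binds the membrane-bound chemokine CX3CL1 and marks many monocytes and macrophages. CCRL2 is an atypical member of the family that binds chemerin and presents it to the signalling receptor CMKLR1 on other cells.

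In ATAC-seq a transposase cuts DNA where chromatin is open, and the count of a region measures how often this happened. Levels are given here as counts per 1000000 of a library's total after TMM scaling (CPM), and a mean stands with its SD (n = 4 libraries per day). The 4 values of a day are listed in the order of the replicate numbers, which do not pair the days. A change is a log2 fold change, day 21 over day 7, ± its standard error, from edgeR's quasi-likelihood test with Benjamini-Hochberg adjustment over all regions or genes of the table. A region rose, fell or was called where the adjusted p was under 0.05. Gene ends are the regions overlapping 1000 bp on either side of either annotated end of a gene, and distal regions lie outside these windows for every protein-coding gene.

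The day 7 libraries held 9440223 to 16063736 counts each and the day 21 libraries 14021151 to 27737040. The first principal component of all tested regions held 38.5% of the variance and separated the days, and the second held 15.3% and set day 7 replicate 2 apart from the other libraries. Open chromatin at the genes that define cDC1s was present on both days: of 15 cDC1 markers 14 had a testable region at a gene end, with summed levels of 594 to 624 CPM at day 7 and 583 to 631 CPM at day 21. At gene ends Xcr1, the chemokine receptor that defines cDC1s, had 16.1 ± 3.08 CPM at day 7 and 15.4 ± 1.8 CPM at day 21, with overlapping libraries. At gene ends 2 cDC1 markers rose, Wdfy4 (0.47 ± 0.10) and Cd24a (0.29 ± 0.07), and 2 fell, Irf8 (−0.51 ± 0.07) and Ppt1 (−0.18), where of all genes tested 6.71% rose and 24.6% fell (median log2 fold change of the markers 0.040 against −0.09 over all genes). Of 13 markers tested in distal regions 7 rose, among them Clec9a (0.52 ± 0.06), and 0 fell, where of all genes 18.3% rose and 11.4% fell (median 0.20 against 0.04). The counts of the other gene lists are set against these shares and medians in the same order of directions.

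Changes at the 7 receptor genes were about as frequent as in the rest of the genome, and they went both ways. Of the 99 regions 97 could be tested, 1 each of Ccr1 and Ccr2 being too low. Of these 97, 8 rose, 12 fell and 77 were not called, so that 20.6% were called against 19.3% of all tested regions (9.49% higher and 9.85% lower). In 24 of the 97 regions the day 21 libraries were all above or all below those of day 7, as in 19.8% of all regions, above in 14 and below in 10. Of the 97 regions 4 were called with a change of at least 2-fold, as were 5.36% of all tested regions. The share of called regions also followed the level as it did elsewhere: 30.4% of 46 receptor regions with a mean of at least 5 CPM and 11.8% of 51 weaker ones were called, against 28.9% and 13.5% of all regions. Without day 21 replicate 3 the number that rose was 3, and without day 21 replicate 2 it was 5, while the number that fell stayed between 8 and 13 when any 1 library was left out.

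Called regions were found at 6 of the 7 genes. Cxcr4 had 28 regions, of which 2 rose and 3 fell, and Cxcr5 had 17, of which 1 rose and 3 fell. Ccr1 had 12 tested regions with 1 higher and 2 lower, and Ccr2 had 13 with 2 higher and 1 lower. Cx3cr1 had 11 regions with 1 higher and 2 lower, and Ccr9 had 5 with 1 in each direction. None of the 11 regions of Ccrl2 passed the threshold. Of the 9 regions at gene ends 2 were called, and both fell. Of all tested regions 9.85% fell and 9.49% rose, and of the gene-end sums of all genes 24.6% fell and 6.71% rose. The share for single regions at gene ends is not given here. The remaining called regions were distal, 8 higher and 10 lower of 88 tested, against 9.49% and 9.85% of all tested regions. Of the genes, 5 had a region at an end, whereas Ccr1 and Ccr9 had none.

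**Figure D1:**
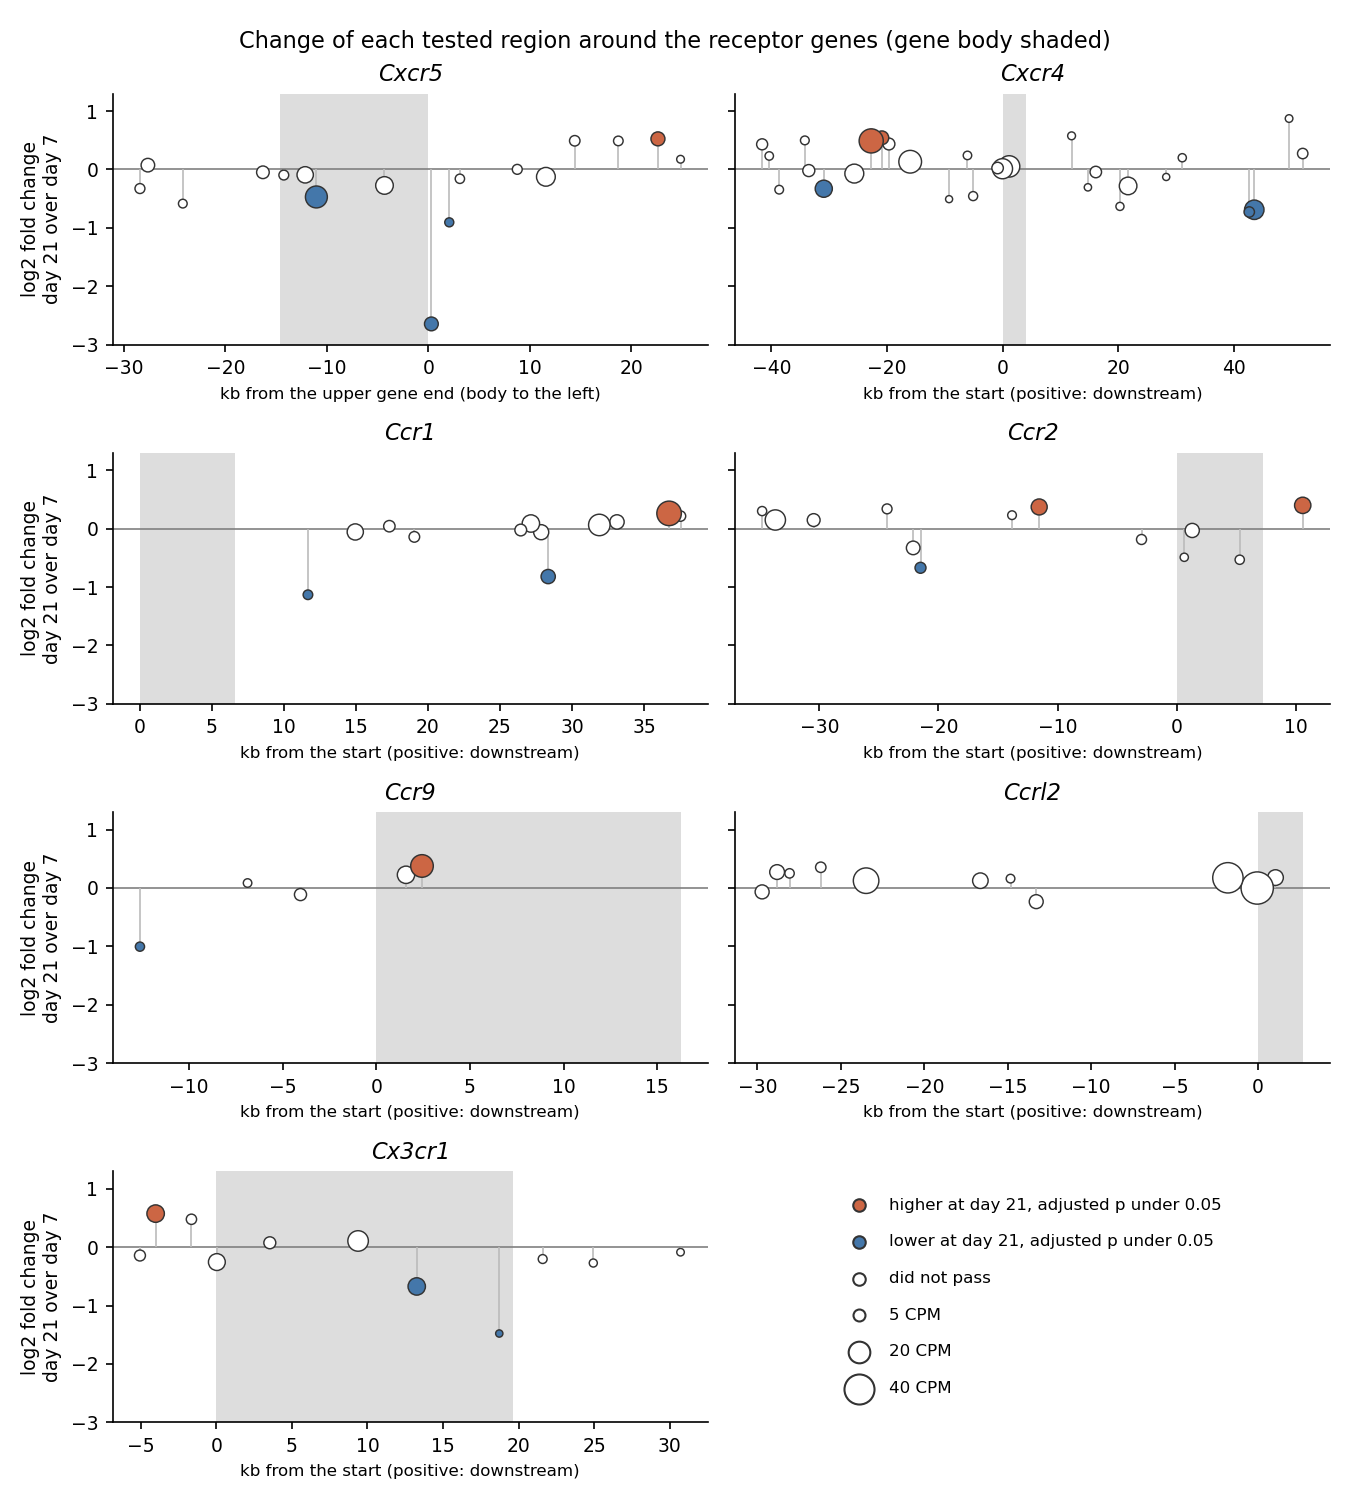
Log2 fold change, day 21 over day 7 (y axis), of each tested region against its distance in kb from the start of transcription (x axis; for Cxcr5 from the end with the higher coordinate), with 1 panel per gene and the gene body shaded. Circle area grows with mean CPM, and filled circles are regions with an adjusted p under 0.05. The region at the upper end of Cxcr5 lies lowest, at −2.65, and no circle of Ccrl2 is filled.

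The largest loss was at Cxcr5. At its end with the higher coordinate (chr9:44526402-44527073, mm10, reaching from the gene's end outwards), CPM was 9.97, 13, 13.8 and 12.6 at day 7 and 1.69, 1.5, 2.77 and 1.89 at day 21. Every day 21 library lay below every day 7 library, and the mean fell from 12.3 ± 1.66 to 1.96 ± 0.561 CPM, a 6.26-fold loss (log2 fold change −2.65 ± 0.18, adjusted p = 1.70e-18). Of 121955 tested regions 22 had a smaller p and 236 a lower log2 fold change. The change lay between −2.85 and −2.55 under all 14 alternatives tried for this region, each with an adjusted p under the threshold. The raw counts behind it were 120 to 203 per library at day 7 and 24 to 53 at day 21.

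The other end of Cxcr5 showed no called change. Its region (chr9:44512070-44512317, inside the gene body) also lies at the end of the neighbouring gene Bcl9l, a co-factor of beta-catenin, and CPM was 3.82, 3.61, 2.19 and 2.17 at day 7 and 1.76, 2.59, 3.89 and 2.6 at day 21. The libraries of the days overlapped, and the difference was −0.10 ± 0.26 (adjusted p = 0.842). Both ends together gave 13.8, 16.6, 16 and 14.8 CPM at day 7 and 3.45, 4.09, 6.66 and 4.48 CPM at day 21, again without overlap. The sum fell from 15.3 ± 1.25 to 4.67 ± 1.39 CPM (log2 fold change −1.70 ± 0.15, adjusted p = 6.64e-15). Of 13572 genes tested at their ends 12 had a smaller p and 44 a lower log2 fold change.

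Around Cxcr5 the distal regions moved by less and in both directions. Inside the gene body (chr9:44515061-44515747, 3.50 kb from the end of Bcl9l), CPM was 25, 24, 23.7 and 22.8 at day 7 and 16.2, 17.8, 18.2 and 16.6 at day 21, a fall without overlap (log2 fold change −0.47 ± 0.10, adjusted p = 1.38e-04). A weak region 2.06 kb beyond the upper end (chr9:44528293-44528709) held 3.16, 2.76, 2.53 and 2.73 CPM at day 7 and 2.18, 1.26, 1.24 and 1.35 CPM at day 21 (log2 fold change −0.91 ± 0.28, adjusted p = 0.0159); its adjusted p was 0.0509 without day 21 replicate 4. Farther out, 22.62 kb from that end (chr9:44548684-44549450), CPM was 6.15, 5.74, 6.49 and 5.84 at day 7 and 8.44, 7.22, 11.3 and 7.93 at day 21, a rise (log2 fold change 0.52 ± 0.16, adjusted p = 0.0134) whose adjusted p was 0.138 without day 21 replicate 3. The called changes at Cxcr5 were thus losses at the upper end, just beyond it and in a single region of the body, and a gain farther out beyond the upper end.

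Summed over the distal regions nearest to Cxcr5, CPM was 67.6, 65.5, 71.8 and 65.7 at day 7 and 65, 65.3, 65.7 and 67.5 at day 21. The days overlapped (log2 fold change −0.04 ± 0.06, adjusted p = 0.686). This sum leaves out 2 regions of the gene body that lie nearer to Bcl9l. With the regions of its body given to Cxcr5 it was −0.13 (adjusted p = 0.0498). The sum also holds regions that lie inside the body of Bcl9l, and these stayed with Cxcr5 in that fit. The ends of Cxcr5 changed more than its distal regions in a test of that difference over both sums of each library (−1.67 ± 0.15, adjusted p = 3.11e-08). Of 11029 genes with both kinds of region 23.8% were called in this test, and 5 had a smaller p than Cxcr5. The median difference over all these genes was −0.11.

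CXCR5 is best known from B cells and follicular helper T cells and is also reported on migrating dendritic cells, so markers of such cells were read beside it. Of 16 T and NK cell markers tested at gene ends 8 fell and 1 rose (against 24.6% and 6.71% of all genes; median −0.53 against −0.09), with a summed level of 139 to 162 CPM at day 7 and 129 to 145 CPM at day 21. Bcl11b, a transcription factor of T cells, fell from 2.13 ± 0.645 to 0.58 ± 0.524 CPM (log2 fold change −2.03 ± 0.42, adjusted p = 1.76e-04), and Cd2, an adhesion receptor, from 5.56 ± 1.23 to 3.22 ± 0.188 CPM (log2 fold change −0.80 ± 0.21, adjusted p = 0.00222). The one that rose was Klrb1c (0.51 ± 0.11), a receptor of NK cells, and its distal regions fell (−0.29). In distal regions 9 of 20 fell and 1 rose (against 11.4% and 18.3% of all genes; median −0.29 against 0.04), with the fall of Cd247, a signalling chain of the T cell receptor, from 6.6 ± 1.66 to 1.53 ± 0.586 CPM (log2 fold change −2.17 ± 0.24, adjusted p = 3.55e-11). At its ends Cd247 was not called, with 27.1 ± 1.41 CPM at day 7 and 29.9 ± 0.877 CPM at day 21 (0.14). Ncr1 and Lck had no region at an end, and Cd3d had no distal one.

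Among B cell markers, of 10 tested at gene ends 0 fell and 1 rose, Fcrla (0.60 ± 0.09) (against 24.6% and 6.71% of all genes; median −0.030 against −0.09), and the summed level was 77.3 to 82.5 CPM at day 7 and 84.1 to 87.7 CPM at day 21. In distal regions 3 of 11 rose, Spib (0.34 ± 0.09), Fcrla (0.22 ± 0.07) and Pax5 (0.21 ± 0.08), and 0 fell (against 18.3% and 11.4% of all genes; median 0.010 against 0.04). Of markers of mature dendritic cells, a list chosen with earlier results of these data known, 9 of 19 fell and 1 rose at gene ends (against 24.6% and 6.71% of all genes; median −0.18 against −0.09), with a summed level of 630.0 to 672 CPM at day 7 and 516 to 558 CPM at day 21. In distal regions 11 of 18 fell and 3 rose (against 11.4% and 18.3% of all genes; median −0.25 against 0.04). Among them Tnfrsf4, a receptor of the TNF family, fell from 9.01 ± 1.47 to 1.77 ± 0.795 CPM (log2 fold change −2.39 ± 0.22, adjusted p = 8.42e-14) at its ends, and Slco5a1, a transporter, from 28.4 ± 1.61 to 12 ± 2.28 CPM (log2 fold change −1.24 ± 0.10, adjusted p = 6.82e-16). Those of this list that rose were Cacnb3 at its ends (0.96), and Ccl17 (0.32), Cd83 (0.16) and Birc3 (0.16) in distal regions. Cacnb3 was weak at its ends, with 0.924 ± 0.277 and 1.77 ± 0.462 CPM, and its distal regions fell (−0.29). In bulk cells, fewer cells of a type and less accessibility per cell cannot be told apart. The part of these cell types in the loss at Cxcr5 was not tested.

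**Figure D2:**
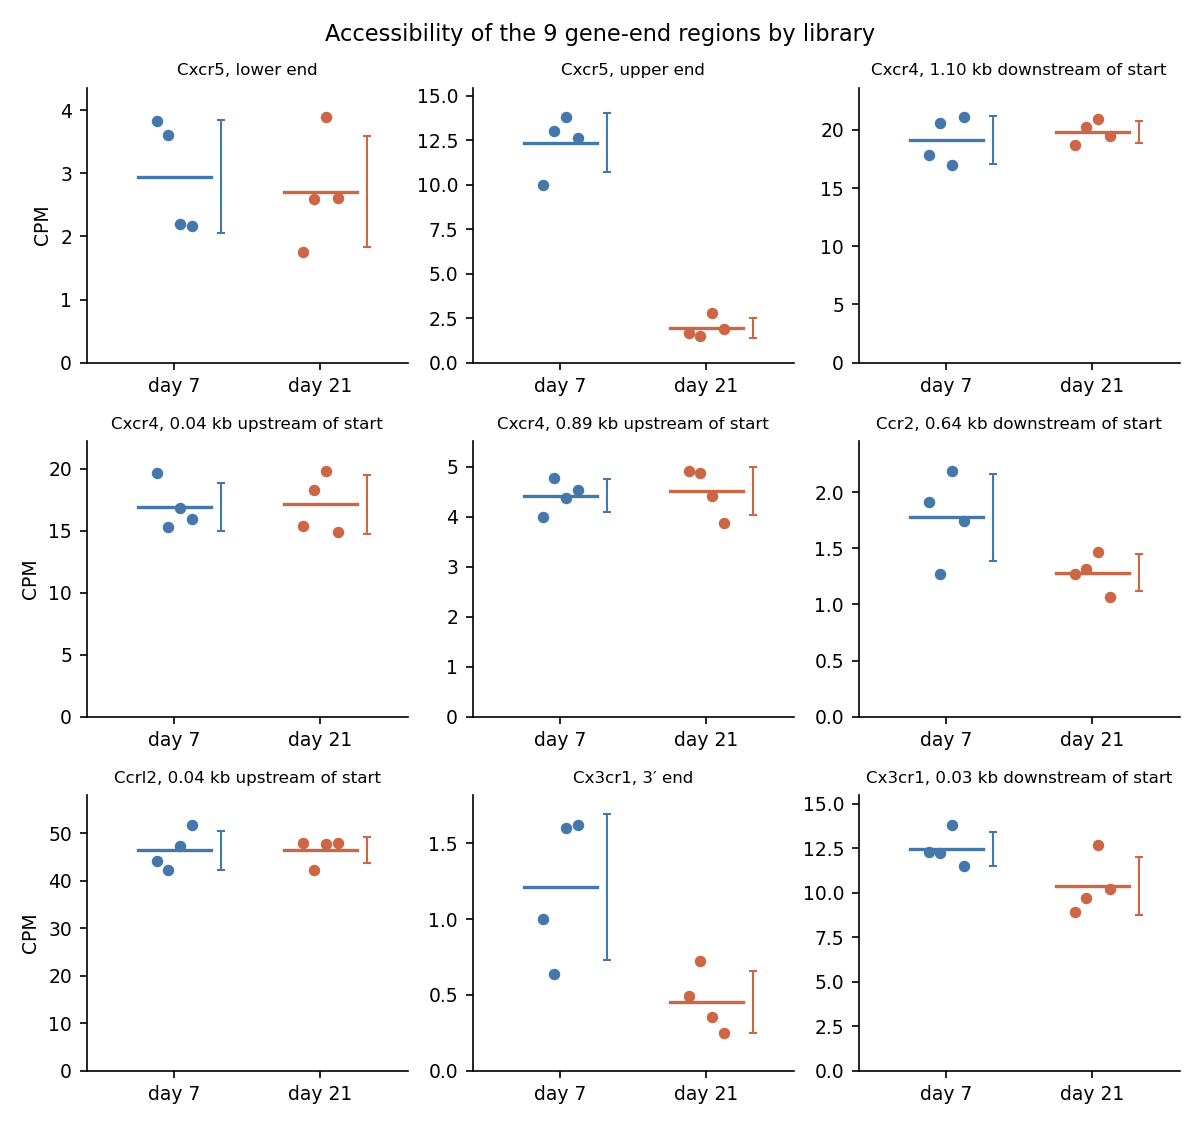
CPM (y axis) of the 9 regions at the ends of Cxcr5, Cxcr4, Ccr2, Ccrl2 and Cx3cr1 in each library (points), by day (x axis), with the mean as a line and the SD as a bar beside it. At the upper end of Cxcr5 the 4 day 21 libraries sit between 1.5 and 2.77 CPM, below the 4 day 7 libraries at 9.97 to 13.8 CPM, and in the other 8 panels the days overlap.

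Where a region covered the start of transcription, the sequence there can be set beside its accessibility. Promoters of 6 of the 7 genes were matched by symbol in RefSeq (GRCm38.p6, 250 bases before to 50 after the start), all but Cxcr5. The 3 with an accessible region over the start are printed 5′ to 3′ on the strand of the gene, with matches to the searched motifs in capitals. They are Cxcr4 (chr1:128592250-128592549, minus strand), Ccrl2 (chr9:111057469-111057768, minus strand, 1 of 3 listed starts) and Cx3cr1 (chr9:120068247-120068546, minus strand).
Cxcr4: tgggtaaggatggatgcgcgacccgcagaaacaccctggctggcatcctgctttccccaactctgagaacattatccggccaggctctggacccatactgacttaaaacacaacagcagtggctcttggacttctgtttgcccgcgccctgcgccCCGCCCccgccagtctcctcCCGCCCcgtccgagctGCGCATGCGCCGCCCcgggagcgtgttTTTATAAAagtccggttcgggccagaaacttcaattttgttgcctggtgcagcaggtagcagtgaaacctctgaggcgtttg
Ccrl2: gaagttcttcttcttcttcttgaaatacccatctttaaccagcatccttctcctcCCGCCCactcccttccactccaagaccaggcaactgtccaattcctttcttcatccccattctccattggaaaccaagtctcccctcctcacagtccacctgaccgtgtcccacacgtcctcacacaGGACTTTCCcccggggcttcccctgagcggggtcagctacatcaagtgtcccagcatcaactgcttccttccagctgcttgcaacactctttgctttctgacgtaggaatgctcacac
Cx3cr1: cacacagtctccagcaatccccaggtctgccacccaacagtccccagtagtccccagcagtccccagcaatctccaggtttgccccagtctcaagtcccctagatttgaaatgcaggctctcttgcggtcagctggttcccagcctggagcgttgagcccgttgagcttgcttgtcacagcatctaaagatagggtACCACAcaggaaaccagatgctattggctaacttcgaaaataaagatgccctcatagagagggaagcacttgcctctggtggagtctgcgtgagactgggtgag

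The letters searched, on both strands, were TGANTCA (AP-1), TGACGTCA (CRE), GAGGAA (PU.1), GGANTTTCC (kappaB), GCATGCGC (NRF1), GGGCGG (SP/KLF), TGTGGT (RUNX) and TATAAA (bound by TBP), chosen with these promoters in view. They occurred in 7.81%, 1.79%, 28.3%, 1.25%, 2.71%, 35.7%, 16.8% and 13.6% of 32851 promoters of the same length, in that order. The Cxcr4 promoter held 20 CpG pairs, more than 73.5% of promoters, against a median of 7. It held 3 SP/KLF matches, overlapping NRF1 matches on the 2 strands, of which the one on the strand of the gene also overlaps the nearest SP/KLF match, and TATAAA on both strands. The Ccrl2 promoter held 6 CpG pairs, 1 kappaB match 68 bases before the start and 1 SP/KLF match, and that of Cx3cr1 held 5 CpG pairs and 1 RUNX match. The promoters without a region over the start were poorer in CpG pairs, with 1 in Ccr1, 1 in Ccr2 and 4 in Ccr9, and of the searched letters Ccr1 alone held any (PU.1 and RUNX). A match is a run of letters and not a measured binding site.

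At the start of transcription of Cxcr4 no difference passed the test. In the region over the start (chr1:128591911-128592776), CPM was 19.6, 15.3, 16.8 and 15.9 at day 7 and 15.4, 18.3, 19.8 and 14.9 at day 21, with overlapping libraries (log2 fold change 0.01 ± 0.11, adjusted p = 0.96). In the first part of the gene (chr1:128590738-128591660, centre 1.10 kb downstream) CPM was 17.8, 20.6, 17 and 21.1 at day 7 and 18.7, 20.2, 20.9 and 19.5 at day 21 (log2 fold change 0.05 ± 0.10, adjusted p = 0.777). In the region 0.89 kb upstream (chr1:128593026-128593354) it was 3.99, 4.78, 4.38 and 4.54 at day 7 and 4.92, 4.87, 4.42 and 3.88 at day 21 (log2 fold change 0.02 ± 0.19, adjusted p = 0.952). None of the 3 regions differed between the days by more than the spread between libraries. Their sum was 40.4 ± 1.54 CPM at day 7 and 41.5 ± 3.3 CPM at day 21 (log2 fold change 0.03 ± 0.07, adjusted p = 0.768), and its small difference changed sign with the library left out and with thinned libraries.

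The distal regions of Cxcr4 changed in both directions, and their sum did not pass the test. Upstream of the start, in a wide region 22.75 kb away (chr1:128614312-128615777), CPM was 18.6, 19.7, 21.8 and 23.7 at day 7 and 25.2, 33.5, 29.1 and 30.1 at day 21, a rise in which every day 21 library was above every day 7 library (log2 fold change 0.49 ± 0.09, adjusted p = 5.73e-05). Its neighbour 20.90 kb upstream (chr1:128613052-128613351) held 4.98, 5.95, 6.07 and 6.09 CPM at day 7 and 6.96, 8.48, 9.61 and 8.5 CPM at day 21 (log2 fold change 0.54 ± 0.16, adjusted p = 0.01). That rise had an adjusted p of 0.0525 without day 21 replicate 3.

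The losses around Cxcr4 lay farther from the gene. Downstream, 43.49 kb from the start (chr1:128548218-128549402), CPM was 23.9, 12.7, 20.6 and 20.4 at day 7 and 14.2, 10.3, 12 and 12.1 at day 21, a fall (log2 fold change −0.69 ± 0.12, adjusted p = 1.60e-05) in which day 7 replicate 2 overlapped the day 21 libraries. Beside it, at 42.62 kb (chr1:128549506-128549852), CPM was 4.65, 4.14, 3.88 and 4.04 at day 7 and 3.23, 2.05, 2.95 and 1.99 at day 21 (log2 fold change −0.73 ± 0.23, adjusted p = 0.016), with adjusted p of 0.0556 without day 21 replicate 2, 0.0834 without day 21 replicate 4 and 0.0513 without day 7 replicate 1. Upstream, 30.95 kb from the start (chr1:128623048-128623442), it was 14.2, 12.3, 13.9 and 12.7 at day 7 and 9.7, 11.4, 10.3 and 10.8 at day 21. That fall was just past the threshold (log2 fold change −0.33 ± 0.12, adjusted p = 0.0463), and 6 of the 8 fits without 1 library lost it, with adjusted p of 0.0631 to 0.121 without day 7 replicate 1, 3 or 4 or without day 21 replicate 1, 3 or 4. The distal sum of Cxcr4 was 151 ± 10.9 CPM at day 7 and 153 ± 6.78 CPM at day 21 (log2 fold change 0.02 ± 0.05, adjusted p = 0.853), with overlapping libraries, and its ends and distal regions differed in their change by less than the standard error (0.01 ± 0.08, adjusted p = 0.93).

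Ccr1 and Ccr2, receptors of inflammatory chemokines, lie on chromosome 9 in the same cluster of receptor genes. Ccr1 had no region at either end and none in its body, and its 12 tested regions lay downstream of the gene. At 28.35 kb from the start (chr9:123940174-123940515), CPM was 8.31, 11.3, 10.9 and 9.13 at day 7 and 6.82, 3.85, 6.48 and 5.27 at day 21, a fall without overlap (log2 fold change −0.82 ± 0.16, adjusted p = 9.88e-05). At 11.66 kb (chr9:123956876-123957179) CPM was 3.32, 3.93, 3.2 and 4.04 at day 7 and 2.25, 1.44, 1.41 and 1.57 at day 21, a 2.19-fold fall (log2 fold change −1.13 ± 0.26, adjusted p = 6.89e-04). Both falls were called under all 14 alternatives tried for them.

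The strongest region of Ccr1, 36.74 kb from the start (chr9:123931559-123932340), moved the other way. There CPM was 23.8, 22.9, 25 and 23.2 at day 7 and 29.7, 28.2, 29.4 and 26.9 at day 21, without overlap but with a small rise (log2 fold change 0.26 ± 0.09, adjusted p = 0.0226), and the adjusted p was 0.0523 to 0.0659 without day 7 replicate 4 or without day 21 replicate 1, 2 or 3. Over all distal regions of Ccr1, CPM was 111, 115, 116 and 108 at day 7 and 115, 111, 121 and 103 at day 21, with overlap (log2 fold change −0.0013 ± 0.05, adjusted p = 0.99). Gains and losses of single regions thus stood beside a sum that did not pass the test.

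Ccr2, the receptor that brings monocytes out of the bone marrow along CCL2, had little accessible chromatin at its ends. Its 1 end region, 0.64 kb downstream of the start (chr9:124102695-124102942), held 1.91, 1.27, 2.19 and 1.74 CPM at day 7 and 1.27, 1.32, 1.47 and 1.07 CPM at day 21, from 12 to 30 raw counts per library. The days overlapped (log2 fold change −0.49 ± 0.33, adjusted p = 0.327; for the gene-end sum log2 fold change −0.50 ± 0.34, adjusted p = 0.273).

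In the distal regions of Ccr2 2 rose and 1 fell. The fall was 21.51 kb upstream (chr9:124080498-124080851), where CPM was 5.65, 4.46, 5.31 and 3.98 at day 7 and 2.53, 4.21, 2 and 3.31 at day 21 (log2 fold change −0.67 ± 0.22, adjusted p = 0.0208), with day 21 replicate 2 inside the range of day 7. Its adjusted p was 0.056 to 0.0899 without day 7 replicate 1 or 3 or without day 21 replicate 1 or 3. The first rise, 10.58 kb downstream of the start and beyond the gene (chr9:124112566-124112962), went from 10.3, 8.07, 8.77 and 9.51 CPM to 11.3, 13.7, 12.8 and 10.9 CPM (log2 fold change 0.40 ± 0.13, adjusted p = 0.0237). Its adjusted p was 0.0624 to 0.11 without day 7 replicate 2 or 3 or without day 21 replicate 2 or 3. The other, 11.54 kb upstream (chr9:124090421-124090855), went from 9.97, 7.44, 7.42 and 10.6 CPM to 10.9, 11.6, 12.5 and 11.3 CPM (log2 fold change 0.37 ± 0.14, adjusted p = 0.0439). It was lost in 5 of the 8 fits without 1 library, with adjusted p of 0.0832 to 0.169 without day 7 replicate 2 or 3 or without day 21 replicate 2, 3 or 4. None of the 3 called regions of Ccr2 thus kept its call in every fit without 1 library. Their changes in these fits kept their direction, at −0.87 to −0.54, 0.33 to 0.46 and 0.29 to 0.48 in the order given.

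The distal sum of Ccr2 was 76.2, 67.7, 75.4 and 75.4 CPM at day 7 and 77.2, 76.5, 79.1 and 78.6 CPM at day 21. All day 21 libraries were above all day 7 libraries, yet the difference was small and did not pass the test (log2 fold change 0.08 ± 0.06, adjusted p = 0.335). The ends and distal regions of Ccr2 differed in their change by −0.59 ± 0.22 (adjusted p = 0.0543), where the median over all genes was −0.11. Of the 10 alternatives tried 1 passed, that without day 7 replicate 2 (adjusted p = 0.0428).

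Ccr9, the receptor for the gut and thymus chemokine CCL25, had 5 distal regions and none at an end. In its gene body, 2.44 kb downstream of the start (chr9:123769388-123769909), CPM was 17.4, 21.1, 18.3 and 19.6 at day 7 and 23.1, 28.2, 25.5 and 22.4 at day 21, a rise without overlap (log2 fold change 0.38 ± 0.10, adjusted p = 0.0028) that was called under all 14 alternatives. A weak region 12.63 kb upstream (chr9:123754344-123754825) fell 2.01-fold, from 4.65, 3.08, 2.19 and 2.36 CPM to 1.83, 1.56, 1.3 and 1.42 CPM (log2 fold change −1.01 ± 0.28, adjusted p = 0.00659). Without day 7 replicate 1, the highest library, its adjusted p was 0.0963. The 2 regions show opposite changes on either side of the start.

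The distal sum of Ccr9 was 41.1, 39.9, 39.5 and 41.2 CPM at day 7 and 48.2, 45, 50 and 42.3 CPM at day 21. It rose from 40.4 ± 0.863 to 46.4 ± 3.44 CPM (log2 fold change 0.19 ± 0.07, adjusted p = 0.0336), against 18.3% of all genes higher and 11.4% lower in their distal sums. The call was lost with DESeq2 (adjusted p = 0.12), with offsets that follow abundance (0.0941) and in 6 of the 8 fits without 1 library, with adjusted p of 0.0551 to 0.161 without day 7 replicate 2, 3 or 4 or without day 21 replicate 1, 2 or 3. CCR9 also marks plasmacytoid dendritic cells (pDCs). Of 9 pDC markers tested at gene ends 4 fell, Ptprs (−0.47 ± 0.11), Tcf4 (−0.33 ± 0.09), Bst2 (−0.22 ± 0.07) and Cyb561a3 (−0.22), and 1 rose, Siglech (0.29; against 24.6% and 6.71% of all genes; median −0.050 against −0.09), with a summed level of 246 to 259 CPM at day 7 and 219 to 245 CPM at day 21. In distal regions 1 of 11 rose, Il3ra (0.68 ± 0.09), and 1 fell, Tcf4 (−0.23 ± 0.06), against 18.3% and 11.4% of all genes (median −0.12 against 0.04). The part of pDCs in the values of Ccr9 was not tested.

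Ccrl2 had the highest mean level per length at its start among the 5 genes with a region at an end, and this level differed between the days by less than the spread between libraries. Its region, 1432 bp wide over the start (chr9:111056846-111058278), held 44.2, 42.2, 47.3 and 51.7 CPM at day 7 and 48, 42.2, 47.6 and 47.9 CPM at day 21. The libraries overlapped, with means of 46.3 ± 4.15 and 46.4 ± 2.83 CPM and a log2 fold change of −0.0020 ± 0.07 (adjusted p = 0.99). The sign of this difference changed with the fit, within −0.042 to 0.058 over the alternatives.

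The distal sum of Ccrl2 was higher at day 21. It was 110.0, 109, 117 and 120.0 CPM at day 7 and 123, 126, 132 and 120.0 CPM at day 21, with overlap, a rise just past the threshold (log2 fold change 0.13 ± 0.05, adjusted p = 0.0448) although none of its 10 regions passed alone. The call was lost under 10 of 17 alternatives, among them DESeq2 (adjusted p = 0.197) and leaving out 1 library, with adjusted p of 0.0549 to 0.165 without day 7 replicate 1, 2 or 3 or without day 21 replicate 2 or 3. The ends and distal regions differed in their change by −0.13 ± 0.08 (adjusted p = 0.232), close to the median of −0.11 over all genes. Cmklr1, which encodes the receptor that CCRL2 presents chemerin to, rose in its distal regions from 44.1 ± 3.49 to 54.4 ± 3.19 CPM (log2 fold change 0.30 ± 0.07, adjusted p = 4.65e-04) and had 1.4 ± 0.5 and 1.83 ± 0.382 CPM at its ends (log2 fold change 0.40 ± 0.34, adjusted p = 0.396).

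At Cx3cr1, the receptor of monocytes and macrophages for CX3CL1, 1 distal region inside the body fell and 1 upstream rose, of 9 distal regions tested. In the body, 13.26 kb from the start (chr9:120054702-120055374), CPM was 16.8, 10.8, 15.8 and 17 at day 7 and 10.6, 7.58, 9.14 and 10.7 at day 21, a fall without overlap (log2 fold change −0.67 ± 0.13, adjusted p = 7.91e-05). Upstream, 4.02 kb from the start (chr9:120072107-120072521), CPM was 8.97, 11.9, 8.52 and 10.7 at day 7 and 17.2, 12.3, 14.6 and 15.5 at day 21, a rise without overlap (log2 fold change 0.57 ± 0.13, adjusted p = 5.32e-04). Both were called under all 14 alternatives.

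At the start of Cx3cr1 (chr9:120068041-120068486) CPM was 12.3, 12.2, 13.8 and 11.5 at day 7 and 8.93, 9.69, 12.7 and 10.2 at day 21. Day 21 replicate 3 reached into the range of day 7, and the difference did not pass (log2 fold change −0.26 ± 0.13, adjusted p = 0.165) except without that library (adjusted p = 0.0431). At the other end (chr9:120049447-120049708) a very weak region of 6 to 26 counts per library fell from 0.997, 0.637, 1.6 and 1.62 CPM to 0.492, 0.722, 0.354 and 0.249 CPM (log2 fold change −1.48 ± 0.49, adjusted p = 0.0226), and its adjusted p was 0.0568 to 0.111 without day 7 replicate 3 or 4 or without day 21 replicate 3 or 4.

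Both ends of Cx3cr1 together held 13.3, 12.9, 15.4 and 13.1 CPM at day 7 and 9.42, 10.4, 13.1 and 10.5 CPM at day 21. The sum fell (log2 fold change −0.33 ± 0.12, adjusted p = 0.0288), the second gene-end sum that fell beside that of Cxcr5 among the 5 measured genes, with 0 that rose; of all genes 24.6% fell and 6.71% rose at their ends. This call was lost with DESeq2 (adjusted p = 0.166) and with offsets that follow abundance (0.072). Both scaled the libraries on the gene-end sums themselves. It was also lost with the start alone (0.109), and with adjusted p of 0.0587 to 0.129 without day 7 replicate 3 or without day 21 replicate 1, 2 or 4. The distal sum was 58.7 ± 2.87 and 59.6 ± 3.99 CPM (log2 fold change 0.02 ± 0.06, adjusted p = 0.849). Ends and distal regions differed in their change by −0.35 ± 0.13, where the median over all genes was −0.11. This was short of the threshold (adjusted p = 0.0564) except without day 21 replicate 3 (adjusted p = 0.0169).

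Macrophage and monocyte markers were read beside Ccr1, Ccr2 and Cx3cr1. Of 17 tested at gene ends 5 rose and 1 fell (against 6.71% and 24.6% of all genes; median 0.14 against −0.09), with a summed level of 112 to 123 CPM at day 7 and 122 to 134 CPM at day 21. C1qc, a chain of complement C1q, rose from 3.53 ± 0.388 to 7.63 ± 1.61 CPM (log2 fold change 1.11 ± 0.19, adjusted p = 5.12e-06), with C1qa (0.98), Pf4 (0.70 ± 0.18), Ly6c2 (0.38) and Cd14 (0.29), and the fibronectin gene Fn1 (−0.99 ± 0.23) fell. In distal regions 3 of 17 rose and 3 fell (against 18.3% and 11.4% of all genes; median −0.030 against 0.04), among them Csf1r (0.22 ± 0.06) and Mrc1 (−0.16 ± 0.06). The part of macrophages and monocytes in the values of the 3 receptor genes was not tested.

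**Figure D3:**
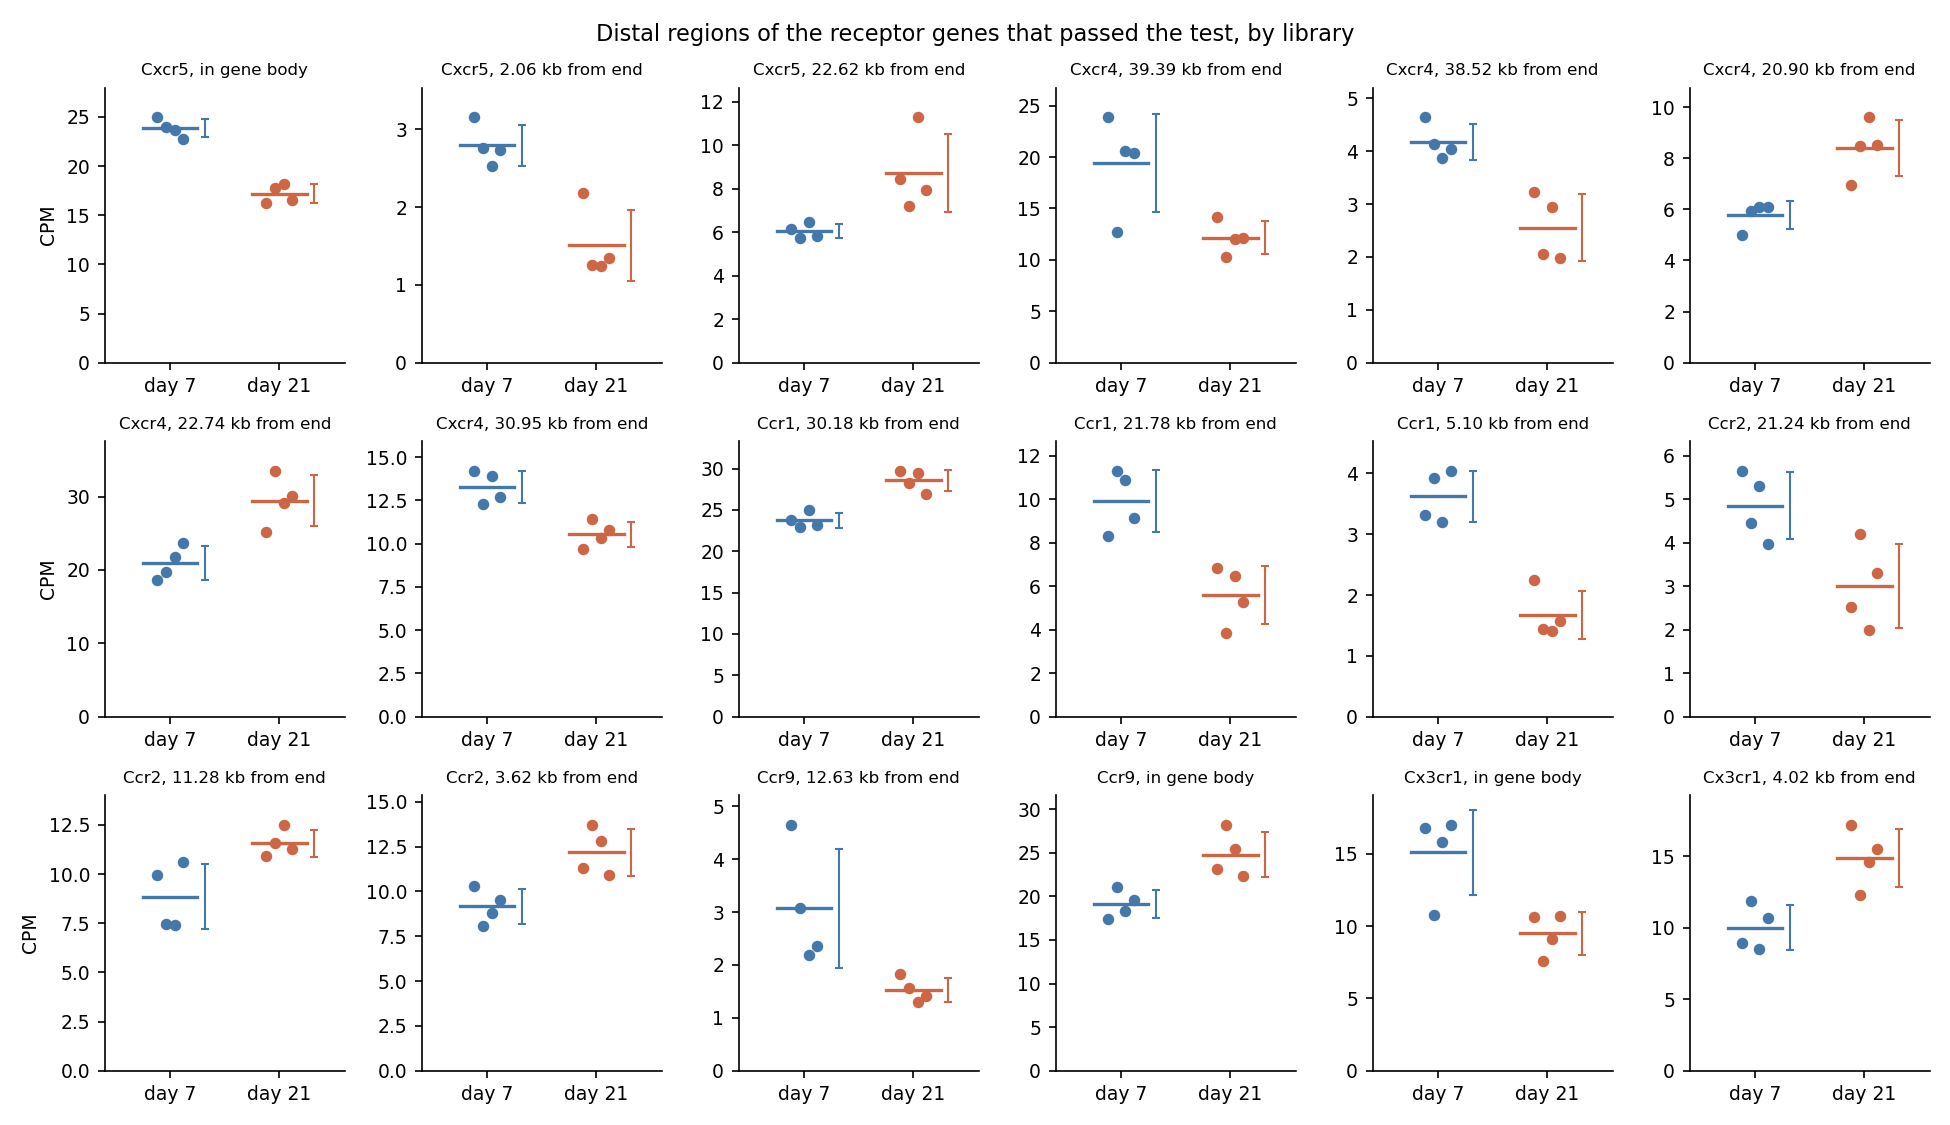
CPM (y axis) of the 18 distal regions of Cxcr5, Cxcr4, Ccr1, Ccr2, Ccr9 and Cx3cr1 with an adjusted p under 0.05, in each library (points) by day (x axis), with the mean as a line and the SD as a bar. Titles give the distance to the nearest gene end in kb, or the gene body. In 2 of the panels, Cxcr4 at 39.39 kb and Ccr2 at 21.24 kb, the libraries of the days overlap.

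Per length, the regions at the gene ends differed in level between genes. At day 7 the region over the start of Ccrl2 held 32.4 ± 2.9 CPM per kb and that of Cx3cr1 28 ± 2.21, with overlapping SDs. Below them came Cxcr4 with 19.5 ± 2.2 CPM per kb and the upper end of Cxcr5 with 18.4 ± 2.48, whose SDs overlapped, and last the region downstream of the start of Ccr2 with 7.2 ± 1.56. At day 21 the order was Ccrl2 (32.4 ± 1.98), Cx3cr1 (23.4 ± 3.7), Cxcr4 (19.8 ± 2.71), Ccr2 (5.19 ± 0.681) and Cxcr5 (2.92 ± 0.836). Cx3cr1 and Cxcr4 then had overlapping SDs, and Cxcr5 had moved from the level of Cxcr4 to below that of Ccr2.

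**Figure D4:**
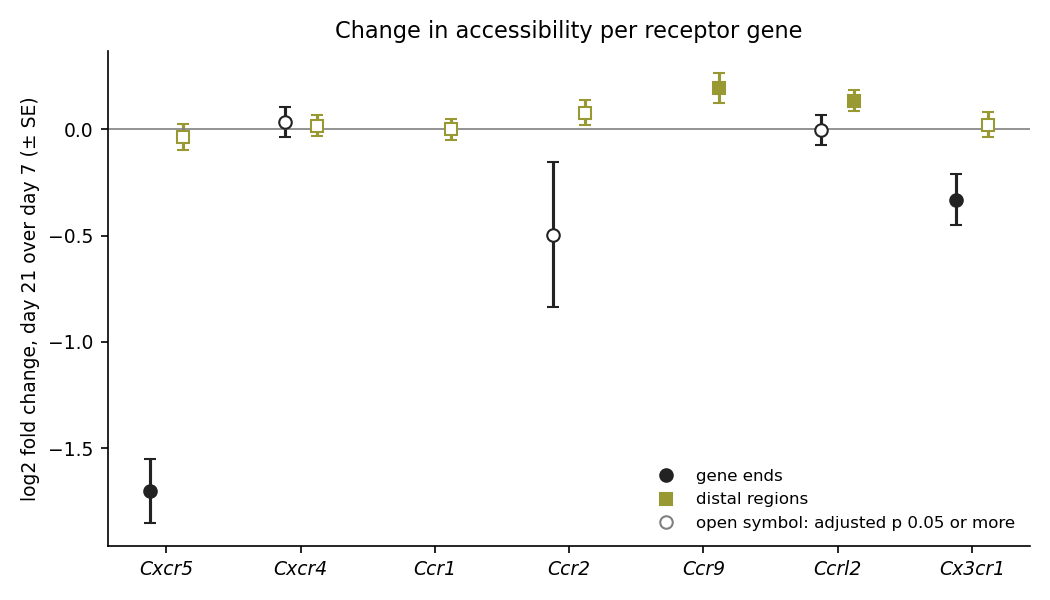
Log2 fold change, day 21 over day 7, ± SE (y axis) of the summed gene ends (circles) and the summed distal regions (squares) of each receptor gene (x axis), with open symbols where the adjusted p was 0.05 or more. The gene ends of Cxcr5 stand at −1.70, and all distal sums lie between −0.04 and 0.19; Ccr1 and Ccr9 have no circle.

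Among 17 other receptors for chemokines and related ligands, the strongest changes at gene ends were also losses. Of 9 tested 2 fell and the other 7 were not called (24.6% of all genes fell), with a median log2 fold change of 0.060 against −0.09 over all genes. Ccr7 fell from 32.4 ± 2.34 to 12.7 ± 3.21 CPM (log2 fold change −1.36 ± 0.10, adjusted p = 3.10e-17), and Ccr8, a receptor of regulatory T cells, from 3.07 ± 0.945 to 0.666 ± 0.59 CPM (log2 fold change −2.32 ± 0.39, adjusted p = 4.82e-06). In distal regions 2 of 14 fell, Ccr7 (−0.90 ± 0.06) and Cxcr1 (−0.26 ± 0.09), and 1 rose, Cmklr1 (against 11.4% and 18.3% of all genes), with a median of −0.070 against 0.04. For Ccr7 the sums over ends and over distal regions both fell. For Cxcr5, Cx3cr1 and Ccr8 the sum over the ends fell and the distal sum was not called. The distal sum of Ccr8 was 15.6 ± 1.61 CPM at day 7 and 15.3 ± 2.5 CPM at day 21 (adjusted p = 0.894), and its ends were near the floor at day 21.

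**Figure D5:**
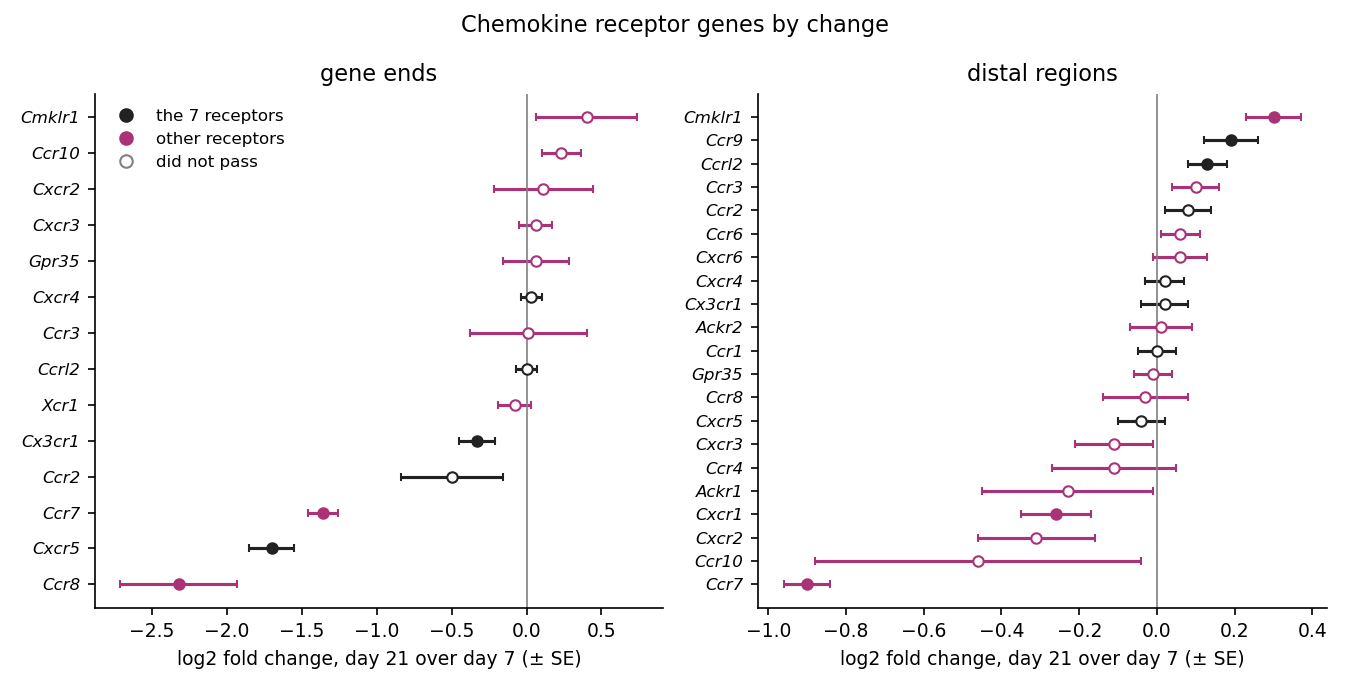
Log2 fold change, day 21 over day 7, ± SE (x axis) of chemokine receptor genes (y axis), in order of change, at gene ends (left) and in distal regions (right), with the 7 receptors in black, the others in purple and open symbols where the test was not passed. At gene ends Ccr8, Cxcr5 and Ccr7 stand apart at −2.32, −1.70 and −1.36.

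Genes of the ligands of these receptors were called about as often as other genes. Beside chemokines these ligands include Mif, Hmgb1 and Rarres2, none of which was called. Of 13 ligand genes tested at their ends 3 fell and 1 rose, Ccl9 (0.24; against 24.6% and 6.71% of all genes), with a median of −0.040 against −0.09. Ccl5, a ligand of CCR1, fell from 11.5 ± 1.33 to 3.48 ± 0.73 CPM (log2 fold change −1.74 ± 0.17, adjusted p = 5.39e-13), Ccl3 from 24.4 ± 2.56 to 17.4 ± 2.45 CPM (log2 fold change −0.49 ± 0.10, adjusted p = 9.88e-05) and Ccl4 from 29.8 ± 2.66 to 23.8 ± 1.29 CPM (log2 fold change −0.32 ± 0.08, adjusted p = 0.00221). The days did not overlap in any of these 3. In distal regions 3 of 14 rose and 2 fell (against 18.3% and 11.4% of all genes), with a median of −0.080 against 0.04. Cxcl13, the ligand of CXCR5, rose in its distal regions from 4.11 ± 0.566 to 6.43 ± 1.06 CPM (log2 fold change 0.64 ± 0.18, adjusted p = 0.00463), and Ccl9 (0.26) and Ccl2 (0.18) rose with smaller changes. Cx3cl1, the ligand of CX3CR1, fell in its distal regions from 35.2 ± 2.82 to 28.1 ± 2.25 CPM (log2 fold change −0.33 ± 0.08, adjusted p = 0.00145), as did Ccl3 (−0.39 ± 0.10).

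Genes that carry or quench the receptors' signal changed in both directions. Of 39 tested at gene ends 5 rose and 7 fell (against 6.71% and 24.6% of all genes; median 0.010 against −0.09), and in distal regions 13 rose and 6 fell (against 18.3% and 11.4% of all genes; median 0.090 against 0.04). Gng2, a gamma subunit of the G proteins, rose from 44.5 ± 2.8 to 75.8 ± 2.34 CPM (log2 fold change 0.76 ± 0.06, adjusted p = 6.82e-16) at its ends and from 203 ± 5.64 to 313 ± 23.4 CPM (log2 fold change 0.63 ± 0.05, adjusted p = 1.75e-17) in its distal regions. Rgs2, a regulator that shortens G protein signals, rose at its ends from 149 ± 5.88 to 193 ± 13.3 CPM (log2 fold change 0.37 ± 0.05, adjusted p = 1.01e-07). Rgs1, another such regulator, rose at its ends from 40.9 ± 2.58 to 57.7 ± 6.57 CPM (log2 fold change 0.49 ± 0.07, adjusted p = 2.31e-07) while its distal regions fell from 75.7 ± 3.58 to 54.1 ± 7.83 CPM (log2 fold change −0.49 ± 0.07, adjusted p = 3.16e-08). Rgs10 rose in its distal regions (0.36 ± 0.05), and Rgs14 (0.35) and Rac2 (0.21) were the other genes that rose at their ends. With offsets that follow abundance, which moved the median of all gene ends from −0.09 to −0.0041, the counts of this group at gene ends were 10 higher and 3 lower. The shares of all genes called with these offsets are not given here, so these counts cannot be set against the shares above.

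The gene ends whose levels followed those of Cxcr5 and Cxcr4 most closely over the 8 libraries were named by Pearson's r of log2 CPM among genes with a mean of at least 5 CPM. For Cxcr5 they were Kmt2a (r = 0.996), a histone methyltransferase, Mpv17l2 (0.995), a mitochondrial protein, and Ino80 (0.987), a chromatin remodeller, out of 11368 genes. All 3 changed by less than Cxcr5, with log2 fold changes of −0.50, −0.26 and −0.36. For Cxcr4 they were Ppp2ca (0.939), a phosphatase subunit, Sin3a (0.932), a co-repressor, and Mindy2 (0.926), a deubiquitinase, with changes between −0.01 and 0.03. The 8 points share libraries, depth and days, and the values are descriptions without a test.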

How the data were processed

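Per the labels, 8 ATAC-seq libraries of sorted tumour cDC1s were grouped by day, 4 at day 7 and 4 at day 21. One table deposited by the authors holds unnormalized counts, a row per region and a column per library. The submitters' processing notes name MACS2 2.1.0.20150603, bedtools, SAMtools, Picard 1.65, cutadapt 1.9 and the build mm10. The aligner, read filters, merging of peaks, any transposase shift of read positions, and whether reads or fragments were counted are not given in the sources used here; a shift would move counts by a few bases at region edges. Coordinates are printed as the table gives them, and their counting base was not stated.

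Gene positions and promoters came from RefSeq (GRCm38.p6, the assembly of mm10). Counts were tested across all genome regions, and across all genes for sums over gene ends and distal regions, with edgeR 4.0.16 (R 4.3.3): filterByExpr, TMM factors, quasi-likelihood test, Benjamini-Hochberg adjustment, threshold 0.05. The difference between ends and distal regions was a day-by-kind term with library as a block. DESeq2 1.42.0, relative log expression factors, offsets that follow abundance (limma 3.58.1), no filter, a replicate block, windows of 500 and 2000 bp, the start alone, limits of 20 and 100 kb and fits without each library were tried. For sums, DESeq2 and the offsets that follow abundance scaled the libraries on the sums themselves, and the other fits on the region table. The fit with these offsets used the same quasi-likelihood test as the main fit. For DESeq2, whether scaling or the test lost a call was not tested. Libraries thinned to 9440223 counts, and regions given first to the gene whose body holds them, were added after seeing the data. Precision is that of 4 libraries per day, and PCR copies are not independent molecules.

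The 7 genes and all gene lists were chosen with earlier results of these data known, and 2 genes of the lists are not reported here. Named were all regions at ends, up to 4 called distal regions per gene and direction, and up to 3 called genes per list and kind of region by smallest p; list genes given with a bare log2 fold change were named after their values were seen. Same-numbered libraries of the days did not deviate together (r of 0.004 to 0.01), so numbers were not treated as pairs.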

Additional observations from a re-analysis of the deposited data

Results flagged for a closer look

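In 78 groups of 4 libraries, 1 library stood apart from the other 3 in 6, where chance gives about 1 in 20. At the start of Ccrl2 day 21 replicate 2 held 42.2 CPM against 47.6 to 48.0 in the others. That region is the whole gene-end sum of Ccrl2, so the same 42.2 CPM set this library apart there too. In the Cxcr4 region 20.90 kb upstream of the start, day 7 replicate 1 held 4.98 CPM against 5.95 to 6.09. In the Cxcr5 region 2.06 kb beyond the upper end, day 21 replicate 1 held 2.18 CPM against 1.24 to 1.35. The gene ends of Cx3cr1 summed to 15.4 CPM in day 7 replicate 3 against 12.9 to 13.3, and the fall of this sum was lost without that library (adjusted p = 0.129). The distal sum of Ccr2 was 67.7 CPM in day 7 replicate 2, the library that the second principal component set apart, against 75.4 to 76.2.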

How the results depend on the processing

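Of 368 refits of the counts, gene sums and differences, 284 kept direction and side of the threshold, 27 lost a call, 3 gained one, 28 changed sign and 26 moved a count. The loss at the ends of Cxcr5 and its difference from the distal regions kept their calls in every refit made (−1.92 to −1.01 and −1.87 to −1.57); with the start alone Cxcr5 could not be fitted. Without 1 library, 3 to 8 receptor regions rose and 8 to 13 fell. The 2 gene-end sums that fell became 1 with DESeq2, with trended offsets and with windows of 2000 or 500 bp, 0 with the start alone, and 1 to 2 without 1 library. The 2 distal sums that rose became 0 with DESeq2 and with trended offsets, 1 with relative log expression factors, 20 kb or thinned libraries, and 0 to 2 without 1 library; with gene bodies first 1 distal sum fell, that of Cxcr5 (−0.13). In ends against distal, 1 to 2 genes were lower without 1 library.

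Cx3cr1 gene ends lost their call at −0.25 (DESeq2), −0.29 (trended offsets), −0.25 (start alone), −0.25 (500 bp) and −0.17 (2000 bp), with −0.44 to −0.27 without 1 library. The distal sum of Ccr9 lost its call at 0.15 (DESeq2) and 0.15 (trended offsets), with 0.14 to 0.23 without 1 library. That of Ccrl2 lost it at 0.095 (DESeq2), 0.13 (relative log expression), 0.12 (20 kb), 0.13 (thinned) and 0.067 (trended offsets), with 0.092 to 0.16 without 1 library. Differences between ends and distal regions without 1 library ran over −0.66 to −0.47 for Ccr2, −0.46 to −0.27 for Cx3cr1 and −0.041 to 0.059 for Cxcr4.

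Changes near 0 changed sign. Cxcr4 gene ends were −0.0087 thinned and −0.024 to 0.068 without 1 library. Ccrl2 gene ends were 0.085 (DESeq2), 0.028 (start alone), 0.015 (thinned), 0.10 (trended offsets), 0.090 (2000 bp) and −0.043 to 0.057 without 1 library. Distal sums of Cxcr4 were −0.022 (DESeq2), −0.0018 (20 kb), −0.060 (trended offsets) and −0.020 to 0.048 without 1 library, those of Ccr1 −0.051 to 0.037, and those of Cx3cr1 −0.018 (DESeq2), −0.023 (trended offsets) and −0.0092 to 0.057. Among regions, the start of Ccrl2 was 0.0010 with the replicate block, 0.015 thinned, 0.026 with trended offsets and −0.042 to 0.058 without 1 library. The Cxcr4 regions were −0.0032 (downstream, trended offsets), −0.045 and −0.054 (start, thinned and trended) with −0.080 to 0.091 without 1 library, and −0.027 (upstream, thinned) with −0.023 to 0.096. The lower end of Cxcr5 ran over −0.33 to 0.063. The cause was not tested for any of these.

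With the replicate number as a block 8 receptor regions rose and 11 fell, the Cxcr4 region 30.95 kb upstream losing its call (adjusted p = 0.0541), and no call on a gene sum changed. Same-numbered libraries did not always correlate best. Regions under 5 CPM, such as that at the end of Ccr2, were called less often in the whole table (13.5% against 28.9% at 5 CPM or more).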

Other observations

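Markers of other cell types that a sort from tumours could hold were read beside the shares of all genes tested, of which 6.71% rose and 24.6% fell at gene ends (median −0.09) and 18.3% rose and 11.4% fell in distal regions (median 0.04). Of 12 markers of type 2 conventional dendritic cells tested at gene ends 1 rose, Il1r2 (0.37 ± 0.09), and 1 fell, Clec4a4 (−0.65 ± 0.19), with a summed level of 168 to 174 CPM at day 7 and 163 to 184 CPM at day 21 and a median of 0.040; in distal regions 2 of 11 rose, Itgam (0.19 ± 0.06) and Ltb (0.39 ± 0.15), and 1 fell, Sirpa (−0.21 ± 0.06). Of 6 neutrophil markers tested at gene ends none was called (summed level 13.1 to 17.8 CPM at day 7 and 12.9 to 15.9 CPM at day 21, median log2 fold change 0.020), S100a8, Csf3r and Mpo had no region there, and in distal regions 2 of 8 rose, Retnlg (0.34 ± 0.07) and Mmp9 (0.19 ± 0.07). Of 7 melanoma markers tested at gene ends 3 fell, Tyrp1 (−2.23 ± 0.53), Sox10 (−1.30 ± 0.46) and Gpnmb (−0.38), and 1 rose, Mitf (0.20 ± 0.07), with a median log2 fold change of −0.38. Tyrp1 was near the floor there, at 1.32 ± 0.546 CPM at day 7 and 0.301 ± 0.273 CPM at day 21, with overlapping libraries. So was Sox10, at 1.3 ± 0.46 and 0.572 ± 0.339 CPM, also with overlap. The summed level was 175 to 191 CPM at day 7 and 171 to 184 CPM at day 21. Pmel, which was not called, held means of 123 and 116 CPM of it. In distal regions 1 of 8 rose, Trpm1 (0.14 ± 0.05), and 1 fell, Tyrp1 (−2.03 ± 0.52), and Tyr had no region of either kind. Of 6 stromal markers tested at gene ends 1 fell, Cdh5 (−1.02 ± 0.32), which also fell in its distal regions (−0.22), 1 of 9 tested (summed level at gene ends 57.6 to 59.1 CPM at day 7 and 48.1 to 57.8 CPM at day 21, median log2 fold change −0.14), and Dcn and Lum had no region of either kind.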
